A study of Arabidopsis thaliana with 12 samples.

Results

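Transcript levels of *jazQ* and *phyB* seedlings were compared directly, without wild type (WT) in the contrast, to ask how a defended, slow-growing mutant and an elongated mutant of *Arabidopsis thaliana* differ across the genome. The 3 *jazQ* and 3 *phyB* libraries, 6 of the 12 in the series, were taken by the genotype in their labels. *jazQ* carries T-DNA insertions in 5 genes of the JAZ family (the alleles *jaz1-2*, *jaz3-4*, *jaz4-1*, *jaz9-4* and *jaz10-1*), and *phyB* carries *phyB-9*, a null allele of the gene for the red-light receptor phytochrome B. Both are in the Col-0 ecotype, which was also the WT. Each library pooled about 200 whole seedlings, roots included, grown on plates that mutants and WT shared, with sucrose and constant illumination, for 8 d at 21 °C. The 6 other libraries, 3 of WT and 3 of *jazQ phyB*, which combines all of these mutations, are given below only as reference levels. In pooled whole seedlings, fewer cells of a type and less RNA per cell cannot be told apart.

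JAZ proteins are repressors that hold back MYC2 and related transcription factors. The hormone jasmonate triggers their destruction, which frees the MYC factors to switch on genes for insect defense. Phytochrome B, activated by red light, restrains a second group of transcription factors, the PIFs, which promote elongation of stems and petioles and are also engaged when a plant is shaded. MYC and PIF factors belong to the same structural family and recognize the same short DNA element, the G-box.

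Of 20957 genes tested, 2947 (14.1%) differed between *jazQ* and *phyB* at a Benjamini-Hochberg adjusted p-value below 0.01 in edgeR's quasi-likelihood test. They are described below as called, with levels in CPM (TMM-scaled counts relative to the library size) and differences as log2 *jazQ* minus *phyB*. Of these, 1594 genes (7.61% of those tested) were higher in *jazQ* and 1353 (6.46%) were higher in *phyB*. Most differences were small. The median size was 0.54 among genes higher in *jazQ* and 0.53 among genes higher in *phyB* on the log2 scale, and 282 and 260 genes, respectively, differed by at least 2-fold. Differences of at least 8-fold were found for 42 genes higher in *jazQ* and 29 higher in *phyB*. In 1593 of the 1594 and in all of the 1353, every *jazQ* library lay on the other side of every *phyB* library, which was so for 42.1% of all genes tested. Among the 88 genes at least 4-fold higher in *jazQ*, replicate 3 was the lowest *jazQ* library in 61, whereas no *phyB* library was lowest in more than 25 of the 60 genes at least 4-fold higher in *phyB*. The split between directions depended on scaling. Tests on log2(TPM + 1) without further scaling called 906 genes higher in *jazQ* and 3158 higher in *phyB* and moved the median over all genes tested to -0.13, from -0.01 in the TMM fit. Once each library was centred on its median, an alternative added after the data were seen, the numbers were 1489 and 1256. Leaving out 1 library lowered the number of called genes, to 1904 without *jazQ* replicate 1, to 1855 without *phyB* replicate 1 and to 1816 without *phyB* replicate 2.

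**Figure D1:**
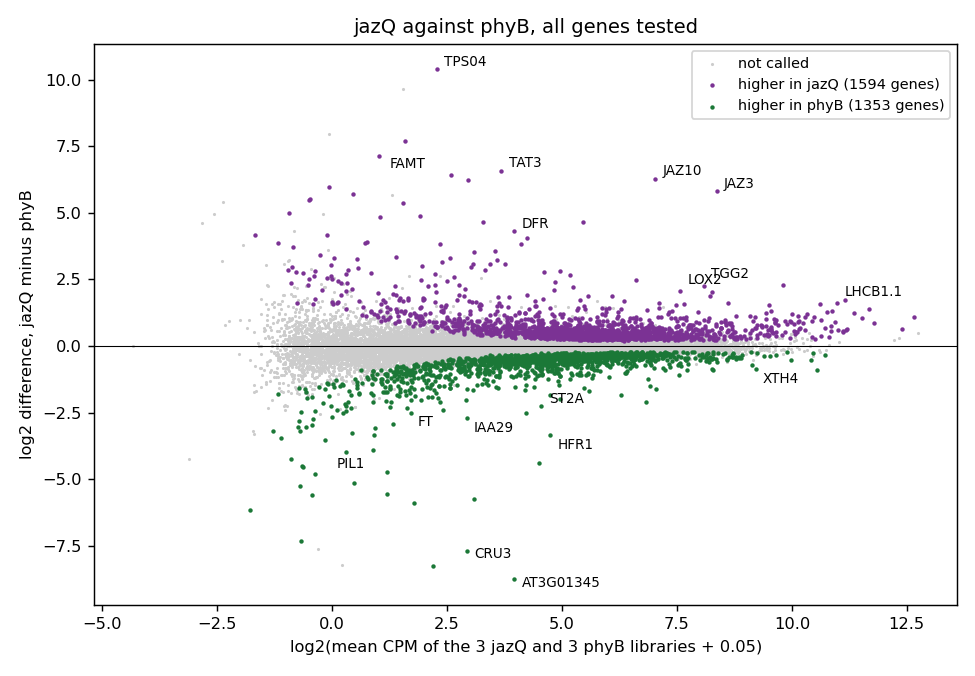
Difference between *jazQ* and *phyB* for each gene tested, on the log2 scale, against its mean level over the 6 libraries, log2(CPM + 0.05). Purple points are the 1594 genes called higher in *jazQ*, green points the 1353 called higher in *phyB*, and grey points the genes not called, and labelled genes with 0 to 3 counts in 1 genotype (*TPS04*, *AT3G01345* and *CRU3*) are drawn at fitted values that depend on the prior count.

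The 6 libraries held 12750074 to 18297004 counts, so that 3 counts, taken as the floor of detection, equal 0.16 to 0.24 CPM. This floor covers counting error only, since PCR copies were not told apart. The 10 most abundant genes of a library took 4.96 to 5.49% of the counts in *jazQ* and 3.4 to 3.54% in *phyB*. Along the first principal component of all 12 libraries, which carried 30.8% of the variance, *phyB* lay between 39.8 and 45.0 and *jazQ* between -26.5 and -20.3. The summed level of 13 green tissue markers was 40405 to 44884 CPM in *jazQ* and 24376 to 25726 CPM in *phyB*, and 9 of the 13 were called higher in *jazQ*. The summed root markers (28 genes) overlapped, with 435 to 462 CPM in *jazQ* and 454 to 477 CPM in *phyB*, and none of the 28 was at 0 throughout. Transcripts of 10 markers of dividing cells summed to 208 to 223 CPM in *jazQ* and 235 to 242 CPM in *phyB*. Only 1 of these markers, *CYCB1;2*, was called, higher in *phyB* (-0.35, adjusted p = 0.0070). Its call was lost without any 1 library other than *phyB* replicate 1 (adjusted p = 0.013 to 0.040). Dry seed markers, 14 genes for storage proteins and oil bodies of which 1 was at 0 in all 6 libraries, summed to 68.2, 33.7 and 9.66 CPM in *phyB* replicates 1, 2 and 3 and to 2.21 to 3.04 CPM in *jazQ*. The *phyB* replicates thus lay far apart in seed transcripts and close together in root and dividing cell transcripts.

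The mutated genes were examined first. *JAZ10*, a repressor that is itself induced by jasmonate, stood at 274, 232 and 268 CPM in the *jazQ* libraries and at 3.1, 3.11 and 3.68 CPM in the *phyB* libraries. Reads from this gene were thus far more abundant in the line that carries an insertion in it, by 6.27 ± 0.10 (SE) on the log2 scale (adjusted p = 2.9e-14). *JAZ3* gave the same picture, with 682, 568 and 695 CPM in *jazQ* against 12.0, 10.1 and 12.4 CPM in *phyB* (5.81 ± 0.12, adjusted p = 8.3e-13). Gene-level counts do not show where in a gene its reads lie, and these 2 levels therefore say nothing about intact transcript. *JAZ1* went the other way, with 5.50, 6.16 and 4.78 CPM in *jazQ* and 24.5, 30.0 and 39.7 CPM in *phyB* (-2.52 ± 0.18). *JAZ4* was also lower in *jazQ* (-1.11 ± 0.16), and *JAZ9* was higher (0.80 ± 0.12, adjusted p = 0.00034). *PHYB* remained detectable in *phyB*, at 54.2, 57.4 and 54.0 CPM, below the 83.7, 79.9 and 74.5 CPM of *jazQ* (0.53 ± 0.06, adjusted p = 5.5e-05). The *jazQ* and *phyB* libraries did not overlap in any of these 6 genes, which was also so for 42.1% of all genes tested.

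Genes for the synthesis of jasmonate stood higher in *jazQ*. Of 14 members tested, 8 were called higher in *jazQ* and none in *phyB*, and the median difference was 0.68, against -0.01 over all genes tested. The enzymes act in sequence in the chloroplast and the peroxisome, from lipoxygenase through allene oxide synthase and cyclase to a reductase. *LOX2*, a chloroplast lipoxygenase, was at 332, 393 and 198 CPM in *jazQ* and at 84.5, 74.0 and 64.0 CPM in *phyB* (2.06 ± 0.23, adjusted p = 2.2e-05). *AOS*, the only allene oxide synthase, reached 158, 211 and 125 CPM against 67.8, 61.6 and 64.6 CPM (1.35 ± 0.17). *AOC1* and *AOC2*, which make the cyclopentenone ring of the hormone, differed by 1.43 ± 0.12 and 1.53 ± 0.13, and *OPR3*, the reductase, by 0.81 ± 0.07. These are paralogs in part, and reads shared between AOC genes were divided by the authors' counting. The wound-inducible lipoxygenase *LOX4* did not pass, at 18.9, 19.7 and 9.35 CPM against 2.67, 2.82 and 2.61 CPM (2.57 ± 0.77, adjusted p = 0.025), nor did *JAR1*, which couples jasmonate to isoleucine (0.19, adjusted p = 0.075). In WT, *AOC1* was at 46.0 ± 6.28 CPM (SD, n = 3) and *LOX2* at 99.5 ± 21.3 CPM, both between the mutants.

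Among genes for jasmonate turnover, 3 of 6 were higher in *jazQ* and 1 in *phyB*. The symbols *JOX1* to *JOX4*, for oxygenases that act on jasmonate, could not be matched and are not in this count. The oxygenase gene *AT2G38240*, given below among the largest differences, is not in it either. *ILL6* and *IAR3*, amidohydrolases that split the active conjugate, differed by 1.06 ± 0.10 and 0.59 ± 0.09. The exception was *ST2A*, a sulfotransferase that acts on hydroxyjasmonate, which stood at 9.38, 4.87 and 9.71 CPM in *jazQ* and at 37.1, 39.5 and 38.3 CPM in *phyB* (-2.26 ± 0.18, adjusted p = 1.6e-06). It was at 4.53 ± 1.02 CPM in WT. Of the 7 JAZ genes without an insertion, 3 were called, all higher in *jazQ*. *JAZ5* was at 4.28, 4.74 and 3.43 CPM in *jazQ* and at 0.79, 1.26 and 1.60 CPM in *phyB* (1.73 ± 0.25). *JAZ2* and *JAZ7* differed by 0.63 ± 0.13 and 1.58 ± 0.34. Their calls rested on single libraries: without *jazQ* replicate 1, *jazQ* replicate 2 or *phyB* replicate 2, *JAZ5* was the 1 member still called, and *JAZ2* had an adjusted p of 0.011 to 0.018 and *JAZ7* of 0.013 to 0.024 over the libraries whose omission ended the call. *JAZ2* was also lost without *phyB* replicate 1 and *JAZ7* without *phyB* replicate 3. *JAZ6* and *JAZ12* had differences of 0.05 and 0.09. The factors that JAZ proteins bind were closer in level. *MYC2* was at 52.7, 65.7 and 54.8 CPM in *jazQ* and 35.7, 38.3 and 38.1 CPM in *phyB* (0.63 ± 0.11, adjusted p = 0.00078), and *JAM1*, a repressor of the same DNA element, differed by 1.14 ± 0.13. *MYC3*, *MYC4*, *JAM2* and *JAM3* did not pass, with differences of 0.13 to 0.26.

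The defense genes that follow jasmonate included wide gaps. Of 13 tested, 9 were higher in *jazQ* and 1 in *phyB*, with a median of 2.06. Several are close to absent in *phyB*. *TPS04*, a terpene synthase that starts a volatile homoterpene, was at 17.3, 10.01 and 1.64 CPM in *jazQ* and had 0 counts in every *phyB* library. Set against 3 counts over the 3 *phyB* libraries, its level in *jazQ* was at least 156-fold higher (adjusted p = 0.0025, and 0.010 and 0.011 without *phyB* replicate 2 or 3, which ended the call). *TAT3*, a tyrosine aminotransferase long used as a jasmonate marker, reached 43.4, 26.3 and 6.28 CPM against 0.14, 0.52 and 0.16 CPM (6.57 ± 1.03, adjusted p = 0.00038). *VSP2*, a vegetative storage protein with activity against insects, was at 51.1, 37.5 and 8.57 CPM against 2.53, 2.52 and 1.87 CPM (3.84 ± 0.57), and *CORI3*, a cystine lyase, at 58.5, 56.5 and 29.4 CPM against 9.60, 9.86 and 8.27 CPM (2.39 ± 0.26). In each of these genes *jazQ* replicate 3 was the lowest *jazQ* library and still lay above every *phyB* library. *FAMT*, a methyltransferase, was at 13.4, 15.6 and 6.35 CPM against 0.07, 0.15 and 0.16 CPM (6.43 ± 0.53). The other genes among the 10 largest differences, the mutated genes aside, were *NATA1*, which acetylates ornithine, the oxygenase *AT2G38240*, the lectin *JAL23*, *CYP82G1*, which completes the homoterpene, *AOX1D*, a mitochondrial alternative oxidase, *CSLG2* and *PAP1*. All of these except *JAL23* had only 1 or 2 counts over the 3 *phyB* libraries. The ratio of *jazQ* to *phyB* was 192 for *AT2G38240*, with an exact 95% counting interval of 34.1 to 7630, and 62.5 for *AOX1D* (17.0 to 522). *NATA1* lost its call without *jazQ* replicate 1 or any 1 of the *phyB* libraries (adjusted p = 0.012 to 0.017), and *CYP82G1* (0.015 to 0.036) and *CSLG2* (0.011 to 0.021) lost theirs without any 1 library other than *jazQ* replicate 3. Without *phyB* replicate 3, 5 of the 13 defense genes were called, all higher in *jazQ*.

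Not every gene of the jasmonate response stood on this side. *ANAC055*, a NAC factor downstream of *MYC2*, was at 9.38, 6.56 and 2.28 CPM in *jazQ* and at 16.02, 17.6 and 21.2 CPM in *phyB* (-1.56 ± 0.30, adjusted p = 0.0018, and 0.010 without *phyB* replicate 3, which ended the call). Its relative *ANAC019* had 5.44, 3.79 and 1.5 CPM against 0.94, 1.26 and 0.91 CPM and did not pass (1.82, adjusted p = 0.014). In the branch that jasmonate shares with ethylene, where *MYC2* acts as a repressor, 4 genes could be tested and *ORA59*, its main activator, was the 1 called. It was at 1.39, 2.23 and 1.07 CPM in *jazQ* and at 3.82, 3.56 and 3.63 CPM in *phyB* (-1.23 ± 0.25, adjusted p = 0.0026). The call was lost without *jazQ* replicate 1, *jazQ* replicate 3 or *phyB* replicate 1 (adjusted p = 0.011 to 0.016). *PR4* and CHI-B, 2 chitin-binding or chitinase genes of this branch, differed by 0.36 and 0.09 and did not pass.

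Gene clusters for triterpenes of the root were higher in *jazQ* throughout. All 6 members tested were called, with a median of 1.37. The count fell to 4 without *jazQ* replicate 1 or 2 or *phyB* replicate 2 or 3, and on log2(TPM + 1). The members lost in these omissions were *THAD* (adjusted p = 0.014 to 0.024) and *MRO* (0.018 to 0.036). *MRN1*, marneral synthase, was at 22.7, 30.0 and 11.7 CPM in *jazQ* and at 2.96, 2.45 and 1.65 CPM in *phyB* (3.22 ± 0.43, adjusted p = 0.00011). *THAS1*, thalianol synthase, reached 254, 296 and 168 CPM against 117, 90.9 and 83.1 CPM (1.31 ± 0.22). WT lay at 1.73 ± 1.14 CPM for *MRN1* and at 62.0 ± 15.99 CPM for *THAS1*, near or below *phyB*. A list of ER body genes and jacalin-related lectins gave a like direction, with 10 of 13 genes higher in *jazQ* and a median of 0.63. The ER body is a store of beta-glucosidases that is released on wounding. The 10 became 7 without *jazQ* replicate 1 or 2 or *phyB* replicate 2 or 3, and on log2(TPM + 1). *BGLU22* was at 448, 472 and 492 CPM in *jazQ* and at 145, 127 and 115 CPM in *phyB* (1.87 ± 0.09, adjusted p = 1.0e-08), with 119 ± 8.15 CPM in WT. *PYK10*, the most abundant beta-glucosidase of the list, did not pass (0.32, adjusted p = 0.011). *JAL23*, a jacalin-related lectin, was at 27.1, 15.1 and 3.21 CPM against 0.36, 0.15 and 0.11 CPM.

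Glucosinolates, the sulfur-rich defense compounds of the cabbage family, were read by branch. For aliphatic glucosinolates, made from methionine, 6 of 25 genes were higher in *jazQ* and none in *phyB* (median 0.55). *BCAT4* and *MAM1*, which begin the elongation of the methionine chain, differed by 1.14 ± 0.18 and 1.08 ± 0.16, with *MAM1* at 279, 320 and 243 CPM in *jazQ* and 149, 126 and 122 CPM in *phyB*. The branch's main regulator *MYB28* did not pass (-0.04, adjusted p = 0.81), and neither did *MYB29*, at 9.15, 11.9 and 5.85 CPM against 5.05, 3.11 and 1.65 CPM (1.5, adjusted p = 0.013). The count of 6 was not stable: it fell to 3 without *jazQ* replicate 1 or without *phyB* replicate 2 or 3 and to 2 without *jazQ* replicate 2, and it was 14 when only the 6 libraries were fitted. For indole glucosinolates, 2 of 15 genes were higher in *jazQ*, 13.3% of the list against 14.1% of all genes. The median of 0.04 was close to that over all genes (-0.09 on log2(TPM + 1)). *IGMT1*, a methyltransferase, was 1 of the 2 (1.05 ± 0.15). The branches were not tested against each other. Myrosinases, which turn glucosinolates into toxic products, were higher in *jazQ*. *TGG2* stood at 501, 521 and 334 CPM against 101.2, 91.7 and 88.2 CPM (2.27 ± 0.18, adjusted p = 1.4e-06), and *TGG1* at 1965, 1958 and 1472 CPM against 820, 745 and 787 CPM (1.2 ± 0.11). In all, 4 of 11 genes of the myrosinase system were called, all higher in *jazQ*, and 2 of 11 without *jazQ* replicate 1 or *phyB* replicate 3. Of 18 genes for sulfate uptake and assimilation, 4 were higher in *jazQ*, among them *APS1* (0.67 ± 0.08) and the vacuolar exporter *SULTR4;1* (0.70 ± 0.07), and *APS4*, another ATP sulfurylase, was higher in *phyB* (-0.78 ± 0.06). Calls in either direction were 27.8% of this list, against 14.1% of all genes.

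Anthocyanin genes were read by position in the pathway. Of 11 late genes tested, 7 were higher in *jazQ*, with a median of 2.13. *DFR*, the first enzyme committed to anthocyanin, was at 26.3, 44.9 and 17.8 CPM in *jazQ* and at 1.80, 1.78 and 1.01 CPM in *phyB* (4.31 ± 0.37, adjusted p = 3.1e-06), and WT lay between at 9.74 ± 2.35 CPM. *LDOX*, which acts after it, reached 17.7, 31.0 and 15.3 CPM against 1.80, 2.15 and 1.55 CPM (3.55 ± 0.32), and the glycosyltransferase *UF3GT* 3.53, 5.62 and 2.64 CPM against 0.07, 0.07 and 0.21 CPM (4.85 ± 0.43). In these 3 genes no *jazQ* library came near the level of any *phyB* library. The MYB activator *PAP1* was at 1.45, 1.22 and 1.21 CPM in *jazQ* and had 0 counts in 2 *phyB* libraries and 0.05 CPM in the third (ratio 60.0, exact 95% counting interval 10.4 to 2410, adjusted p = 0.00051). Its relative *PAP2* and the bHLH partners *TT8*, *GL3* and *EGL3* did not pass, with differences of -0.45, 0.28, -0.12 and 0.02. Of 8 early flavonoid genes, *CHIL* and *TT4*, the chalcone synthase, were called higher in *jazQ*, by 0.60 ± 0.09 and 0.56 ± 0.08, and 4 were called without *phyB* replicate 1. The genes of salicylate, the hormone of defense against biotrophic pathogens, were also read. Of 10 tested, 3 were higher in *jazQ*, 30.0% of the list against 14.1% of all genes. Among them was *SARD1*, an activator of salicylate synthesis, at 13.9, 8.46 and 11.8 CPM against 3.03, 3.26 and 2.99 CPM (1.89 ± 0.27). WT was at 11.7 ± 4.73 CPM for *SARD1*, close to *jazQ*. *PR1* ranged from 1.01 to 8.78 CPM in *jazQ* and from 0 to 0.16 CPM in *phyB* and did not pass (adjusted p = 0.021).

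**Figure D2:**
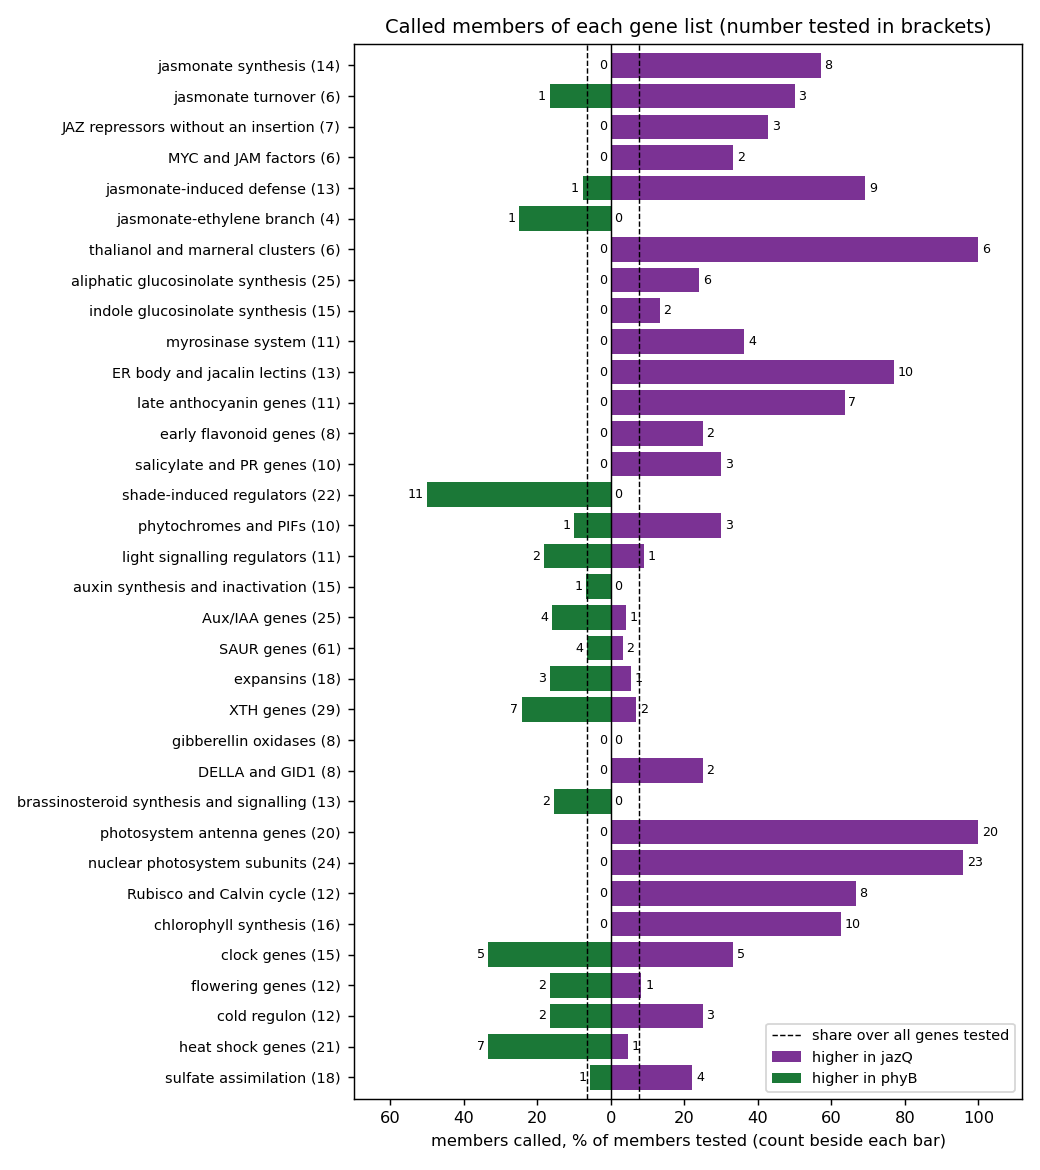
Members of 34 gene lists, marker lists left out, called higher in *jazQ* (purple, to the right) or in *phyB* (green, to the left), as a percentage of the members tested, with the count beside each bar and the number tested in brackets. Dashed lines mark the 7.61 and 6.46% of all genes tested that were called in each direction. The photosystem lists, the triterpene list and the list of ER body genes and lectins reach farthest to the right. The shade-induced regulators reach farthest to the left with 11 of 22.

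Genes that respond to shade were higher in *phyB*. Of 22 shade-induced regulators tested, 11 were called higher in *phyB* and none in *jazQ*, and the median was -0.53. *HFR1*, an atypical bHLH protein that binds PIFs and limits their action, was at 5.15, 4.94 and 4.36 CPM in *jazQ* and at 51.5, 49.2 and 44.8 CPM in *phyB* (-3.32 ± 0.12, adjusted p = 4.1e-10). *PIL1*, a bHLH gene widely used as a shade marker, was at 0.17, 0.34 and 0.14 CPM against 4.04, 3.49 and 2.61 CPM (-3.90 ± 0.39). The homeobox gene *ATHB2*, a direct PIF target, had 10.4, 10.8 and 11.4 CPM in *jazQ* and 18.6, 17.8 and 19.1 CPM in *phyB* (-0.78 ± 0.10), and the growth-promoting bHLH gene *BEE1* had 12.7, 8.66 and 10.9 CPM against 30.2, 30.6 and 33.2 CPM (-1.54 ± 0.19). WT stood at 8.32 ± 1.42 CPM for *HFR1* and at 0.57 ± 0.30 CPM for *PIL1*, on average above each *jazQ* library and far below *phyB*. *FHL*, which carries phytochrome A into the nucleus, was also higher in *phyB* (-1.52 ± 0.18). Among the PIF genes themselves, *PIF4* and *PIF7* were higher in *jazQ* (0.59 ± 0.15 and 0.66 ± 0.13, adjusted p = 0.0091 and 0.0024), while *PIF1*, *PIF3* and *PIF5* did not pass. *PIF5* did pass with DESeq2 and with the exact test. The *PIF4* call was lost without any 1 library other than *jazQ* replicate 3 (adjusted p = 0.029 to 0.046), the *PIF7* call without *jazQ* replicate 1 or 2 or *phyB* replicate 1 or 3 (adjusted p = 0.011 to 0.014), and neither held on log2(TPM + 1). *PHYA* differed by -0.14 (adjusted p = 0.11). *PHYD* was called higher in *phyB* (-0.44) and *PHYE* higher in *jazQ* (0.22). *PHYE* was lost without any 1 of the 6 libraries, and *PHYD* without any 1 other than *jazQ* replicate 2. Of 11 light signalling regulators, *BBX21* and *BBX22* were higher in *phyB* (-0.40 and -0.68) and *SPA3* in *jazQ* (0.31). These were 27.3% of the list, against 14.1% of all genes. The *SPA3* call was lost without any 1 library other than *jazQ* replicate 2.

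Auxin genes differed at few points. *YUC8*, a flavin monooxygenase that completes auxin synthesis, was at 1.85, 1.62 and 1.5 CPM in *jazQ* and at 5.84, 3.93 and 5.60 CPM in *phyB* (-1.62 ± 0.19, adjusted p = 3.4e-05), and it was the 1 of 15 synthesis and inactivation genes called, with a second member passing without *jazQ* replicate 2 or 3. The 1 call was 6.67% of this list, below the 14.1% of all genes. Of 25 Aux/IAA genes, which encode short-lived repressors induced by auxin, 4 were higher in *phyB* and 1 in *jazQ*. *IAA29* was at 2.37, 1.96 and 1.64 CPM in *jazQ* and at 13.1, 13.5 and 12.8 CPM in *phyB* (-2.70 ± 0.17, adjusted p = 2.7e-07), with 3.19 ± 0.90 CPM in WT. *IAA19* and *IAA7* differed by -1.31 ± 0.22 and -0.66 ± 0.07. The 61 SAUR genes tested had 4 calls in *phyB* and 2 in *jazQ*, 9.84% of the list against 14.1% of all genes. The 4 were *SAUR22*, *SAUR23*, *AT5G18030* and *AT4G34770*, and *SAUR22* and *SAUR23* are near neighbours in sequence, so that reads could be divided between them. Of 8 gibberellin oxidases none was called. Of 13 brassinosteroid genes, 15.4% were called, close to the 14.1% of all genes. They were *BR6OX1* and *BR6OX2*, related oxidases that act late in synthesis, both higher in *phyB* (-1.01 ± 0.20 and -0.62 ± 0.15). *BR6OX1* was lost without *jazQ* replicate 2 or *phyB* replicate 3 (adjusted p = 0.011 and 0.013), and *BR6OX2* without any 1 of the 6 libraries (0.017 to 0.032). *RGL3*, a DELLA gene that jasmonate induces, was higher in *jazQ*, at 5.79, 5.07 and 4.21 CPM against 2.89, 1.93 and 2.08 CPM (1.14 ± 0.19). The DELLA genes *RGA* and *GAI* did not pass, at -0.19 and -0.04.

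Cell wall enzymes of growing cells followed in part. Of 29 XTH genes, which cut and rejoin xyloglucan, 7 were higher in *phyB* and 2 in *jazQ* (median -0.26). *XTH4* was at 423, 426 and 424 CPM in *jazQ* and at 723, 756 and 806 CPM in *phyB* (-0.84 ± 0.06, adjusted p = 9.0e-07), and *XTH15* at 27.9, 24.6 and 26.1 CPM against 46.5, 57.0 and 60.0 CPM (-1.06 ± 0.10). *XTH6* went the other way (0.56 ± 0.09), and so did *XTH27* (0.29 ± 0.07), the second of the 2, which was lost without any 1 library other than *phyB* replicate 3 (adjusted p = 0.0139 to 0.0495). Of 18 expansins, which loosen walls, *EXPA8*, *EXPA11* and *EXPA14* were higher in *phyB* and *EXPA10* in *jazQ*. These calls were 22.2% of the list, against 14.1% of all genes. *EXPA11* stood at 19.1, 20.2 and 19.2 CPM in *jazQ* and at 41.3, 43.0 and 43.7 CPM in *phyB* (-1.13 ± 0.06, adjusted p = 3.9e-08), and WT was between at 26.3 ± 0.24 CPM. *EXPA10* was at 24.1, 22.7 and 24.1 CPM against 14.3, 13.6 and 11.7 CPM (0.85 ± 0.09).

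**Figure D3:**
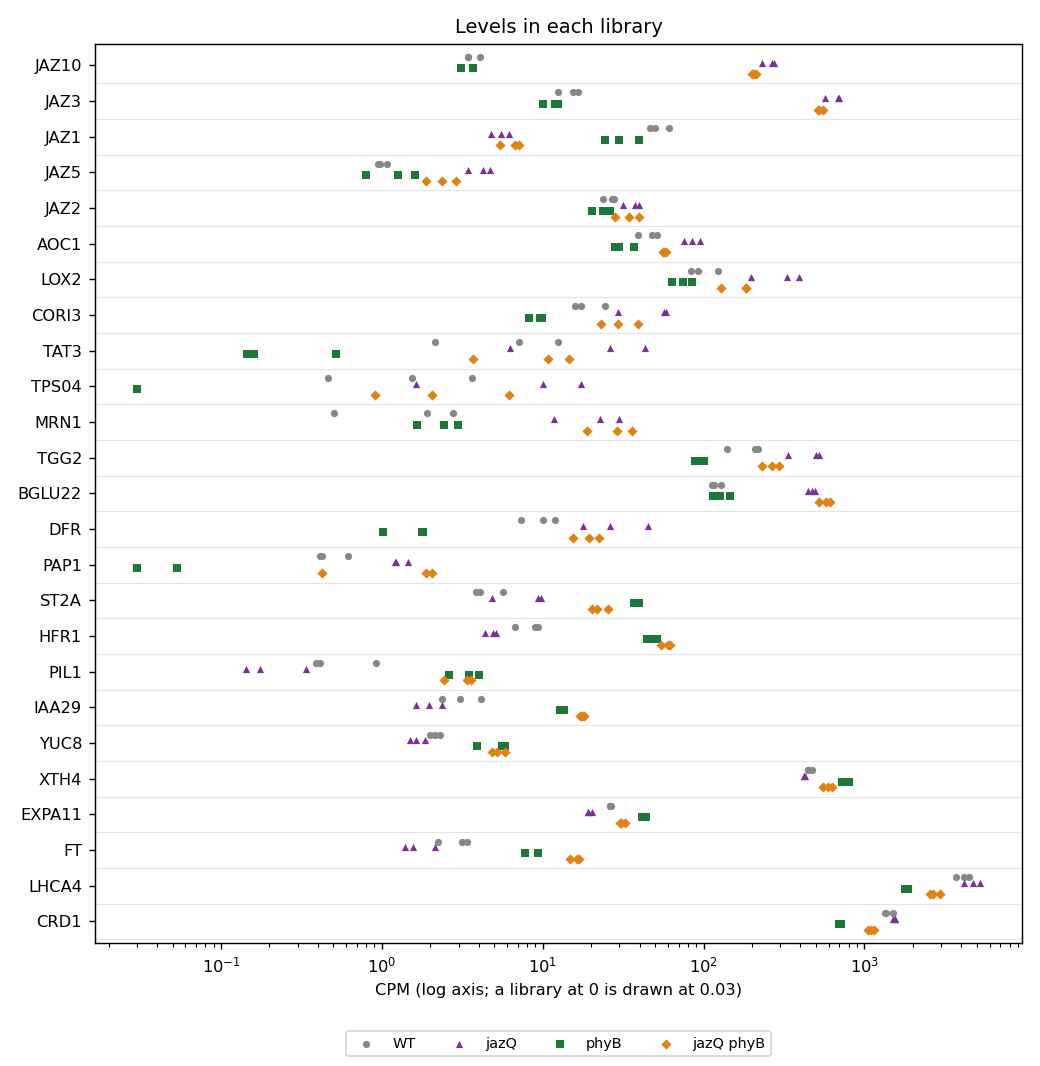
Level of 25 genes in each of the 12 libraries, in CPM on a log axis, with WT as grey circles, *jazQ* as purple triangles, *phyB* as green squares and *jazQ phyB* as orange diamonds. All rows show called genes, in which *jazQ* and *phyB* libraries almost never overlap. That the symbols do not overlap in any row follows from this choice (42.1% of all genes tested do not overlap). *JAZ10*, for example, was at 232 to 274 CPM in *jazQ* and 3.1 to 3.68 CPM in *phyB*.

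Genes for light harvesting stood higher in *jazQ* throughout. All 20 antenna genes tested, which encode the chlorophyll-binding proteins around both photosystems, were called higher in *jazQ*, with a median of 1.25 and a range of 0.40 (*LHCA5*) to 2.29 (*LHCB1.4*). *LHCA4* was at 4752, 5254 and 4154 CPM in *jazQ* and at 1802, 1798 and 1858 CPM in *phyB* (1.38 ± 0.09, adjusted p = 4.9e-07). *LHCB4.2* reached 1149, 1186 and 917 CPM against 379, 373 and 372 CPM (1.53 ± 0.11). WT was at 4118 ± 404 CPM for *LHCA4* and 892 ± 102 CPM for *LHCB4.2*, slightly below *jazQ* and well above *phyB*. The LHCB1 and LHCB2 genes are near-identical copies, and their separate values are uncertain for that reason. Of 24 nuclear photosystem subunits, 23 were higher in *jazQ* (median 0.89). *PSBS*, which governs dissipation of excess light, was at 1101, 1034 and 1079 CPM against 545, 532 and 535 CPM (1.00 ± 0.05, adjusted p = 4.5e-08), with 1150 ± 9.07 CPM in WT.

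Carbon fixation and chlorophyll synthesis ran in the same direction with smaller differences. Of 12 genes for Rubisco and the Calvin cycle, 8 were higher in *jazQ* (median 0.57), among them *GAPA-2* (0.87 ± 0.06) and *GAPB* (0.67 ± 0.06), subunits of the chloroplast dehydrogenase. The most abundant Rubisco small subunit gene, *RBCS1A*, did not pass, at 8737, 7310 and 8071 CPM against 5971, 5548 and 5591 CPM (0.50, adjusted p = 0.012), and *RBCS1B* had a difference of -0.02. In chlorophyll synthesis, 10 of 16 genes were higher in *jazQ* (median 0.43). *CRD1*, a subunit of the enzyme that closes the fifth ring of chlorophyll, was at 1555, 1558 and 1503 CPM in *jazQ* and at 694, 698 and 716 CPM in *phyB* (1.13 ± 0.06, adjusted p = 4.5e-08). *CAO*, which makes chlorophyll b, differed by 1.28 ± 0.10. *GLK1*, an activator of these genes, did not pass (0.23, adjusted p = 0.16). The green tissue markers named above share genes with the antenna, photosystem and Rubisco lists, so their sum is not a separate measure of tissue, and their part in these differences was not tested. The median of the antenna and photosystem lists was positive under every scaling tried.

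Clock genes split into opposite groups although the seedlings grew without light-dark cycles. Of 15 tested, 5 were higher in *jazQ* and 5 in *phyB*, and the median was 0.07 (-0.07 on log2(TPM + 1)). Those higher in *jazQ* are expressed around dawn in plants kept in day-night cycles. *LHY* was at 241, 227 and 243 CPM in *jazQ* and at 108, 113 and 118 CPM in *phyB* (1.07 ± 0.08, adjusted p = 1.0e-06), and its partner *CCA1* at 119, 126 and 100 CPM against 55.6, 60.6 and 63.7 CPM (0.94 ± 0.09). *RVE8*, *LNK2* and *RVE4*, activators of later clock genes, differed by 1.00 ± 0.08, 0.99 ± 0.08 and 0.64 ± 0.08. Those higher in *phyB* act later in the cycle. *PRR9* was at 5.09, 3.45 and 2.50 CPM in *jazQ* and at 13.9, 10.7 and 9.82 CPM in *phyB* (-1.61 ± 0.27, adjusted p = 0.00072), and *PRR5* at 23.4, 25.1 and 25.7 CPM against 46.2, 42.6 and 43.5 CPM (-0.83 ± 0.13). *ELF4* of the evening complex differed by -0.83 ± 0.12, whereas *ELF3*, *LUX* and *PRR7* did not pass. *GI* and *TOC1* had smaller differences (-0.41 ± 0.09 and -0.33 ± 0.06), and without *phyB* replicate 2 or 3 both were lost, which left 3 genes higher in *phyB*. *GI* was lost without any 1 library other than *jazQ* replicate 2 (adjusted p = 0.014 to 0.019) and *TOC1* also without *jazQ* replicate 2 (0.011 to 0.012 over its 3 losses). WT had 285 ± 36.7 CPM of *LHY* and 127 ± 14.4 CPM of *CCA1*, at or above *jazQ*.

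**Figure D4:**
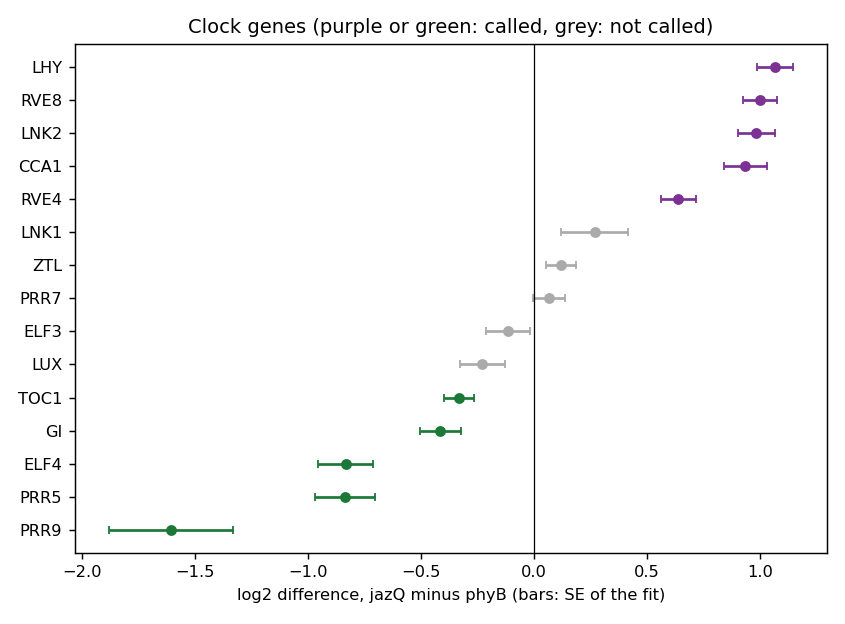
Difference between *jazQ* and *phyB* for 15 clock genes on the log2 scale, with bars for the SE of the fit. Purple points were called higher in *jazQ*, green points higher in *phyB* and grey points were not called, and the values run from 1.07 for *LHY* to -1.61 for *PRR9*.

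Of 12 flowering genes, 2 were higher in *phyB* and 1 in *jazQ*. *FT*, the mobile signal made in leaves, was at 1.39, 1.56 and 2.14 CPM in *jazQ* and at 7.72, 9.42 and 9.34 CPM in *phyB* (-2.39 ± 0.18, adjusted p = 1.1e-06), with 2.92 ± 0.60 CPM in WT. *FKF1*, a blue-light receptor that acts upstream of *FT*, was at 11.2, 13.7 and 10.995 CPM against 25.8, 26.6 and 21.2 CPM (-1.03 ± 0.13). *CO*, which activates *FT*, had 0.87, 1.15 and 1.57 CPM in *jazQ* and 1.95, 1.41 and 1.49 CPM in *phyB*, overlapping ranges (-0.45, adjusted p = 0.34). The 1 higher in *jazQ* was *CDF2*, a repressor of *CO*, at 38.1, 39.7 and 27.0 CPM against 22.0, 23.3 and 22.1 CPM (0.64 ± 0.13, adjusted p = 0.0025). Its call was lost without *jazQ* replicate 1 or 2 or *phyB* replicate 1 or 3 (adjusted p = 0.012 to 0.015) and on log2(TPM + 1). *FLC* and *SOC1* did not pass, at -0.49 and -0.21.

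Stress genes gave mixed directions. Of 21 heat shock genes, 7 were higher in *phyB* and 1 in *jazQ* (median -0.22), and all 8 differences were under 0.6 in size. *HSP81-3* and *HSP81-2*, cytosolic HSP90 proteins, differed by -0.58 ± 0.07 and -0.47 ± 0.07. These are close copies of each other, and their reads could be divided between them. Without *phyB* replicate 1 the 7 became 4 and the 1 became 0, and the latter call was also lost without *jazQ* replicate 1 or *phyB* replicate 2. Of 12 cold-regulated genes, 3 were higher in *jazQ* and 2 in *phyB*. *KIN1* and *KIN2*, neighbouring copies of a small hydrophilic protein, were at 7.76, 14.4 and 5.78 CPM and 73.9, 94.6 and 54.9 CPM in *jazQ* and at 1.52, 1.11 and 0.59 CPM and 22.0, 22.0 and 17.8 CPM in *phyB* (3.16 ± 0.52 and 1.86 ± 0.26). The other gene higher in *jazQ*, *CBF2*, lost its call without *jazQ* replicate 2 or any 1 of the *phyB* libraries (adjusted p = 0.010 to 0.040). It was also lost when only the 6 libraries were fitted (0.021). *RD29B* and *COR15B* were the 2 higher in *phyB* (-1.56 ± 0.35 and -1.84 ± 0.46), and neither remained called without *jazQ* replicate 1 or 3 or *phyB* replicate 1 or 2 (adjusted p = 0.015 to 0.053), nor *COR15B* without *phyB* replicate 3 (0.016). Of 27 root markers tested, 18.5% were called, against 14.1% of all genes. *IRT1* and *FRO2*, the iron transporter and ferric reductase of the root epidermis, were higher in *jazQ*. *IRT1* was at 59.4, 51.5 and 63.8 CPM in *jazQ* and at 23.7, 39.0 and 22.5 CPM in *phyB* (1.05 ± 0.19). *CASP1* and *CASP5*, scaffolds of the Casparian strip, were higher in *phyB* (-0.70 ± 0.12 and -1.2 ± 0.18), as was the phosphate transporter *PHT1;1* (-0.47 ± 0.10), which was lost without *jazQ* replicate 1 or 3 or *phyB* replicate 1 (adjusted p = 0.0108 to 0.0195).

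The largest differences toward *phyB* were of another kind than its shade genes. *AT3G01345*, annotated as an expressed protein, was at 24.7, 30.0 and 38.4 CPM in *phyB* and at 0.12, 0.07 and 0 CPM in *jazQ* (1467 counts against 3, a ratio of 489 with an exact 95% counting interval of 167 to 2370, adjusted p = 2.7e-09). It was at 0.09 ± 0.10 CPM in WT and 0.09 CPM on average in *jazQ phyB*. *AT5G41660* and *AT3G33528* were likewise near 0 outside *phyB*, at averages of 0.03 and 0.08 CPM in WT and 0 and 0.09 CPM in *jazQ phyB*. The pseudogene *AT4G08093* was at 4.26, 4.30 and 4.53 CPM in *phyB*, at no more than 0.12 CPM in *jazQ*, and at 0.02 CPM on average in *jazQ phyB*, while WT lay above both at 0.76 ± 0.19 CPM. *AT5G41660* had 0 counts in all *jazQ* libraries and was at least 17.7-fold higher in *phyB*, set against 3 counts over those libraries. *MRD1*, a gene named for its low level in a methionine-overproducing mutant, was at 5.77, 5.19 and 9.12 CPM against 0.12, 0.07 and 0.14 CPM (-5.87 ± 0.54). These genes held similar levels across the 3 *phyB* libraries. The seed storage genes in the same group did not. *CRU3* and *CRA1*, both cruciferins, were at 28.7, 13.7 and 3.2 CPM and at 31.5, 14.8 and 3.63 CPM in *phyB* and at no more than 0.61 CPM in *jazQ* (a ratio of 214, exact 95% counting interval 73.0 to 1040, for *CRU3*, and -5.72 ± 0.81 for *CRA1*). *AT5G35660* (16.3, 8.75 and 2.08 CPM in *phyB*) and the cupin gene *AT2G28490* (5.19, 1.93 and 0.80 CPM) varied across the *phyB* libraries in the same order as the sum of dry seed markers, whose part in these differences was not tested. The last of the 10 was *AT2G21260*, an oxidoreductase gene (51 counts against 1).

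WT was then read as a reference level for the called genes, since it takes no part in the contrast. Of the 1594 genes higher in *jazQ*, the mean WT level lay between the mutants in 62.4%, above both in 31.2% and below both in 6.34%. Of the 1353 genes higher in *phyB*, it lay between in 80.7% and below both in 16.5%. Over all genes tested it lay between in 42.5%. WT was nearer *jazQ* than *phyB* in 74.8% of genes higher in *jazQ* and in 80.6% of genes higher in *phyB*, against 63.6% of all genes. The median difference from WT among genes higher in *jazQ* was 0.09 for *jazQ* and -0.41 for *phyB*, and among genes higher in *phyB* it was -0.12 and 0.38. The mean of *jazQ phyB* was nearer *jazQ* in 62.4 and 62.9% of these genes, against 54.7% of all. These shares are descriptions, because the genes were chosen by the difference between the same mutants.

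**Figure D5:**
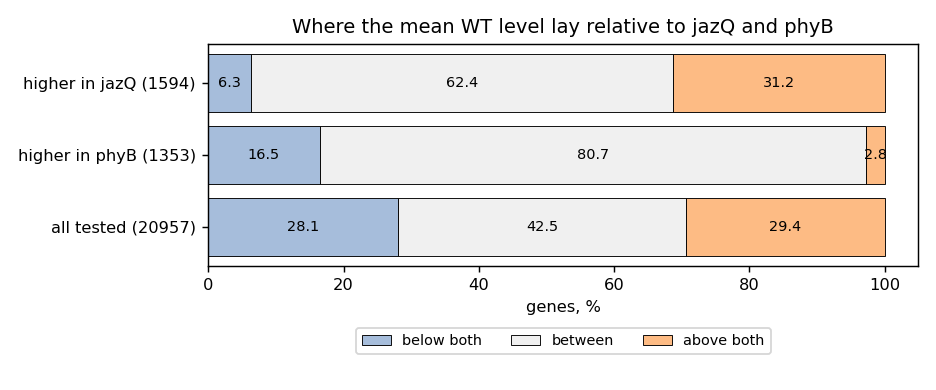
Percentage of genes whose mean WT level lay below both mutants (blue), between them (white) or above both (orange), for genes called higher in *jazQ* (1594), called higher in *phyB* (1353) and all genes tested (20957). WT lay between in 62.4, 80.7 and 42.5% of the genes.

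Because MYC and PIF factors recognize the G-box, promoters of the called genes were searched for it. A window of 250 bases before to 50 bases after the annotated gene start was read from the RefSeq genome (TAIR10.1 assembly) for 20181 of the 20957 genes tested. The G-box CACGTG reads alike on both strands, and the related PBE-box was searched as CACATG and CATGTG. A G-box was found in 16.2% of the windows of genes higher in *jazQ* (254 of 1567), in 7.59% of those higher in *phyB* (100 of 1317), in 8.74% of all genes tested and in 7.68% of all protein-coding genes. The share was 15.7% once the photosynthesis, chlorophyll and green tissue lists were left out, 18.8% for genes at least 2-fold higher in *jazQ* and 12.2% for genes at least 2-fold higher in *phyB*. In the 250 bases before the start alone it was 13.3, 6.30 and 7.33% for genes higher in *jazQ*, higher in *phyB* and all tested. A PBE-box was found in 16.3, 14.2 and 13.0% of the full windows of these 3 groups. Among the photosystem subunits 11 of 24 held a G-box in the full window and 5 of 24 in the 250 bases before the start, and 2 of 16 jasmonate synthesis genes and 2 of 22 shade-induced regulators held one in either window. The sites below were chosen after their genes' values were seen, to show the element in genes of both directions. The first 4 belong to genes higher in *jazQ* and the last 4 to genes higher in *phyB*, each is written 5′ to 3′ on the strand of its gene, and capitals mark the G-box.
JAZ2: aaattaaaaCACGTGttttaaatg
LHCA4: tttaattgaCACGTGtaacaacaa
CRD1: aattatcgcCACGTGtctggctcc
LHY: caatatcacCACGTGtcgatctgc
FHL: gcgccgttgCACGTGcggcctctg
IAA19: aaatgactcCACGTGtcgatattg
IAA7: aatcaagccCACGTGtcataaacc
PRR9: ggttaatgaCACGTGttaaggtgg

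In TAIR10.1 the *JAZ2* site is at chr1:28150498-28150521 (minus strand), 63 bases before the gene start, and the *LHCA4* site at chr3:17495107-17495130 (minus strand), 85 bases before it. The *CRD1* and *LHY* sites are at chr3:21076444-21076467 (plus strand) and chr1:37937-37960 (minus strand), 49 and 77 bases before the start. The *FHL* site is at chr5:437281-437304 (plus strand), and a second G-box of this gene lies farther from its start. The *IAA19*, *IAA7* and *PRR9* sites are at chr3:5263922-5263945, chr3:8194575-8194598 and chr2:19232426-19232449, all on the plus strand, and lie 67, 19 and 169 bases before the start. The same letters thus stand near genes that differed in opposite directions, by 1.38 for *LHCA4* and 1.07 for *LHY* and by -1.31 for *IAA19* and -1.61 for *PRR9*. A match of letters is a description of the sequence and not of binding by any factor.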

How the data were processed

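RNA from whole seedlings was sequenced on an Illumina instrument. The authors assigned reads to TAIR10 gene models with RSEM 1.2.11 at default parameters. They deposited an expected count per gene and library, all of them whole numbers without normalization, and TPM values that the authors' tool scaled for transcript length and library size. All columns were used (0 left out), no row lacked a gene, and the 33602 genes were named from the files and RefSeq. Replicates are independent RNA samples, and every pair differed by more than sampling noise.

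Expected counts were filtered with filterByExpr (minimum count 10) and scaled by TMM, and a quasi-likelihood model of all 4 genotypes was fitted with edgeR 4.0.16 in R 4.3.3, so that 12 libraries shared 1 estimate of the spread. *jazQ* minus *phyB* was tested at a Benjamini-Hochberg adjusted p-value below 0.01. Chloroplast genes held 0.27 to 0.42% of the counts of the 6 libraries. Scripts were tested on simulated data.

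Named genes are the mutated genes, the 10 largest called differences in each direction without overlap and with at least 1 CPM on average where higher, up to 3 called members of smallest p per list and direction, and up to 2 abundant members not called. Other members are named as examples, chosen after their values were seen. The comparison, its 38 lists and the rule were chosen with earlier results of these data known. Lists were described by counts and medians, with no test of a list, and 18 symbols could not be matched and were left out of the lists. Alternatives were DESeq2 1.42.0, limma 3.58.1 on log2 TPM values, other scalings, filters and thresholds, the exact test, a term for replicate number and omission of each library.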

Additional observations from a re-analysis of the deposited data

How the results depend on the processing

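Between 1816 and 2505 genes were called when 1 library was left out, 1015 to 1422 of them higher in *jazQ* and 793 to 1083 higher in *phyB*. At an adjusted p below 0.05 there were 5287 calls (2733 higher in *jazQ*, 2554 in *phyB*), and with a further 2-fold minimum 542 (282 and 260). Limma-trend called 906 genes higher in *jazQ* and 3158 in *phyB* on log2(TPM + 1), and 923 and 3115 on log2(TPM + 0.1), with medians over all genes of -0.13 and -0.15. TPM carry no correction for composition, and centring each library, added after the data were seen, gave 1489 and 1256. Upper-quartile scaling gave 1343 and 1690 (44.3% higher in *jazQ*, against 54.1% with TMM). DESeq2, the exact test, the fit of the 6 libraries alone, no filter and a minimum of 10 counts in each of the 6 gave 2880 to 3756 calls. No gene called in the TMM fit was called in the other direction in any of these settings, and none of the 208 named genes reversed its direction with a call.

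The median of the jasmonate-ethylene branch turned to 0.0924 in the fit of the 6 libraries alone and to 0.0934 with at least 10 counts in each, where fewer of its genes were tested. The median of phytochromes and PIFs turned to -0.0092 on log2(TPM + 1) and -0.0096 on log2(TPM + 0.1), where the median over all genes also fell. Medians already close to 0 turned too on log2(TPM + 1), to -0.07 for clock genes, -0.09 for indole glucosinolates, brassinosteroid genes and auxin synthesis, and -0.11 for Aux/IAA genes and light signalling regulators, and those of auxin synthesis, Aux/IAA and light signalling also turned with upper-quartile scaling (lowest -0.02). The medians of flowering, DELLA, Aux/IAA, auxin synthesis, brassinosteroid and light signalling genes, all near 0, also changed sign without some single libraries. The median of the dry seed markers turned to 0.32 with at least 10 counts in each of the 6 libraries, which left out the 3 called members. Same-numbered libraries did not deviate together (correlations 0.01, -0.01 and 0.08), so the numbers do not pair them, and the fit with the replicate number as a block called 2933 genes.

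With 3 libraries per genotype and 12750074 counts in the smallest, genes near 0.2 CPM were close to the limit of detection, and a difference that missed the threshold is not shown to be absent. The p-values set the difference between *jazQ* and *phyB* against the spread between pooled samples within each of the 4 genotypes. That spread was estimated from 12 libraries in all, and the spread between single seedlings was not measured.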
